A study of Mus musculus with 6 samples.

Results

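Endothelial cells line the blood and lymph vessels, and 35 genes that mark them or work in them were followed in mouse embryos that lack Tmem216, whose product sits at the base of the primary cilium. The genes were taken by name from the deposited table, which holds 56359 rows. All 35 were found, each in a single row. They comprise 11 genes of surface and junction proteins, 3 receptors for vascular endothelial growth factor (VEGF), 9 other receptors and ligands, 6 transcription factors, 4 secreted or cytoplasmic effectors and 2 gap junction proteins of arteries. RNA was sequenced from 3 Tmem216-/- and 3 wild type C57BL/6 samples at embryonic day 12. The source is labelled only as embryo. Which part of it was taken, how the allele was made and whether each sample is a separate embryo are not given in the sources used here, so p values reflect only how these 6 samples scatter, and part of that scatter may be technical.

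Vessels form at this stage from endothelial cells that answer to VEGF through the receptors Flk1 (Kdr), Flt1 and Flt4. Angiopoietins acting through Tie2 (Tek) stabilise the young vessels, and adhesion proteins such as VE-cadherin (Cdh5) seal them. ETS family factors (Erg, Fli1, Ets1) and the SOXF factors (Sox7, Sox17, Sox18) drive the endothelial program, arteries switch on connexin 37 (Gja4) and connexin 40 (Gja5), and lymphatic vessels bud from veins and carry Flt4 and Lyve1.

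Promoter sequence is shown for 3 genes that the results below turn on: Tek and Gja5, which had the smallest p values among the 35, and Flt1, the VEGF receptor with the largest difference. Each line gives the 250 bases upstream of the RefSeq start (GRCm38.p6, the build called mm10), 5′ to 3′ on the gene's strand, at chr4:94739039-94739288 (plus strand), chr3:97032152-97032401 (plus) and chr5:147726012-147726261 (minus). Capitals mark GGAA on either strand, the core that ETS factors bind.
Tek: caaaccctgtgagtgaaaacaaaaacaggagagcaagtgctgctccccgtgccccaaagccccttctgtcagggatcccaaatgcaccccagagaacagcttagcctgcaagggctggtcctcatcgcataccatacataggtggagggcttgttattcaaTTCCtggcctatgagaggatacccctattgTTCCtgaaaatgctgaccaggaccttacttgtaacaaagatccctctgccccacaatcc
Gja5: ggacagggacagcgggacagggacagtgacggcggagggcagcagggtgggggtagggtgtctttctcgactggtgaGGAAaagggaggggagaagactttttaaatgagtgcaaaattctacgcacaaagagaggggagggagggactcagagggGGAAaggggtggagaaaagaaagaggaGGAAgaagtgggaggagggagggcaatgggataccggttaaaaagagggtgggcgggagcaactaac
Flt1: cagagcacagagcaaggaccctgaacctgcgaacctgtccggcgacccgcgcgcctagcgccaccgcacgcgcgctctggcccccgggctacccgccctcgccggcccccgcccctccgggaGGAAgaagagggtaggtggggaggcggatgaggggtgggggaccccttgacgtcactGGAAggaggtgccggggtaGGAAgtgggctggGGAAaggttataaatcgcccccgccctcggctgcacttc

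GGAA occurred 2 times upstream of Tek, 3 times upstream of Gja5 and 4 times upstream of Flt1. RefSeq starts were available for 17 of the 35 genes, and 16 of these (94.1%) held GGAA on either strand. So did 94.2% of all 27025 genes with a window of the same length, a set that leaves out genes on chr18. The longer form CNGGAAG, which contains GGAA, was present for 11 of the 17 (64.7%), against 29.2% of all genes. It was absent from the windows of Tek and Gja5, and also from those of Cldn5, Eng, Gja4 and Kdr. The GATA form AGATAA was found for 1 of the 17 (5.88%, against 11.4% of all genes), and the SOX form ACAATG for 2 of the 17 (11.8%, against 12.2%). These matches describe the letters of the windows and show no binding.

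The deposited values are TPM, transcript abundances scaled to a common total and corrected for gene length, and read depth is unknown. Differences were tested on log2(TPM + 1) with limma over the 16411 genes that reached 1 TPM in 3 or more samples. Tmem216 itself was 2.25, 0.51 and 1.39 TPM in Tmem216-/- and 31.0, 30.7 and 17.4 TPM in wild type, low in all 3 samples labelled as knockout. Markers of other tissues differed between the samples. For each of the 10 heart muscle markers the lowest Tmem216-/- value exceeded the highest wild type value, with summed levels of 853 to 2202 TPM in Tmem216-/- and 56.0 to 81.6 TPM in wild type. The tissue taken and a change of expression cannot be told apart here. The 7 hepatocyte markers summed to 986, 101 and 138 TPM in Tmem216-/- replicates 1, 2 and 3 and to 1966, 2352 and 200 TPM in wild type replicates 1, 2 and 3, so they were high in 3 samples and low in the other 3. Xist and the Y-linked Eif2s3y showed both sexes in each group.

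As a group the endothelial genes were slightly higher in Tmem216-/-, and none of them passed the test. All 35 were tested, and their lowest value in any sample was 2.41 TPM, so none passed the filter through a single group. In limma with Benjamini-Hochberg adjustment 0 of the 35 had an adjusted p under 0.05, against 0.104% of all tested genes (17 genes). The smallest adjusted p among the 35 was 0.496, and 3 had an unadjusted p under 0.05, against 4.46% of all tested genes. The log2 fold change was above 0 for 30 of the 35 (85.7%, against 48.3% of all tested genes), with a median of 0.13 for the list and -0.01 for all tested genes. In 8 of the 35 every Tmem216-/- sample lay above every wild type sample (22.9%, against 4.75% of all tested genes). In 0 of the 35 did every Tmem216-/- sample lie below, against 4.83%. With the mean level of the hepatocyte markers as a covariate, a fit added after the data were seen, 25 of the 35 were above 0 and the median was 0.06. Most single differences were not stable: for 26 of the 35 genes the log2 fold change moved by over 1.5 times or turned in sign when at least 1 sample was left out, and for 24 it did so with the liver covariate. A log2 fold change near 0 meets this rule after a small shift, and the matching shares over all tested genes were not counted. The summed TPM of the 35 was 633, 707 and 620 in Tmem216-/- and 579, 587 and 637 in wild type, so the sums overlapped. In bulk RNA more endothelial cells, more RNA per endothelial cell and a difference in the tissue taken cannot be told apart.

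**Figure D1:**
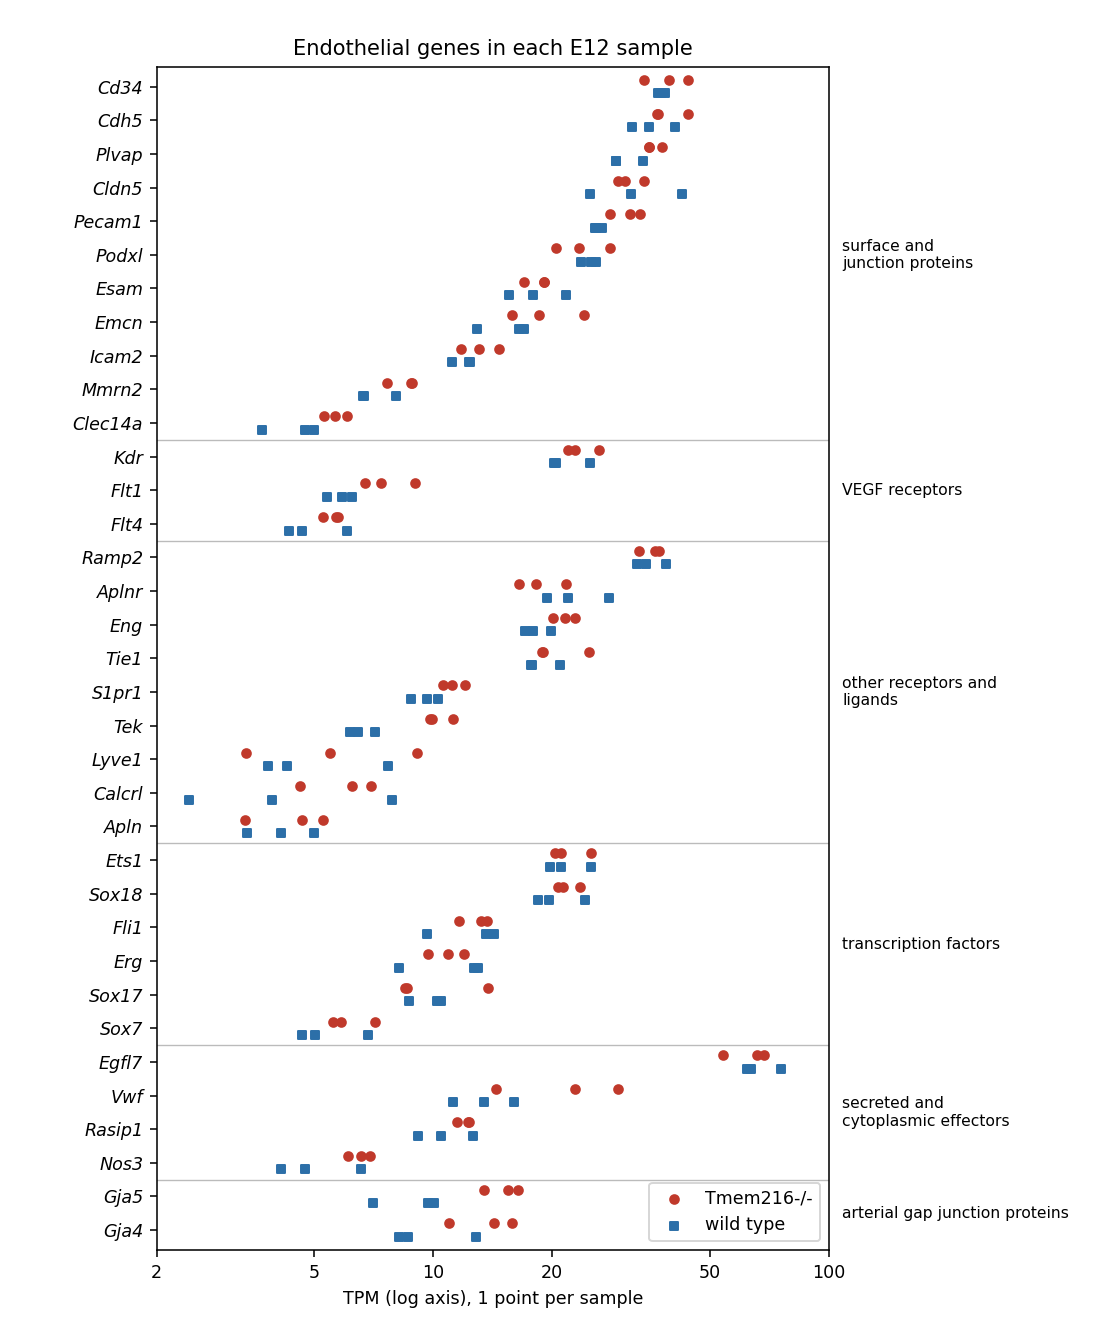
Level of each endothelial gene in TPM on a log axis, with 1 point per sample (circles, Tmem216-/-; squares, wild type) and genes grouped by role. The genes span about the same range in both groups, from Apln at a mean of 4.30 TPM over all samples to Egfl7 at 64.9 TPM, and Tek and Gja5 are among the genes whose groups do not overlap.

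A single sample held many of the highest values. Tmem216-/- replicate 2 was the highest of the 6 samples for 19 of the 35 genes, while it was the highest for 11.7% of all tested genes. Wild type replicates 2 and 1 held the lowest value for 13 and 8 genes, and the matching shares over all tested genes were not counted. A core of 9 genes expressed by most endothelium (Pecam1, Cdh5, Tie1, Kdr, Tek, Esam, Emcn, Clec14a and Egfl7) summed to 225, 254 and 214 TPM in Tmem216-/- and to 210, 215 and 219 TPM in wild type, so the summed groups overlapped. The mean log2(TPM + 1) of the core was 4.40, 4.61 and 4.39 in Tmem216-/- and 4.28, 4.26 and 4.29 in wild type, a difference of 0.19. On this scale, where each gene weighs the same, all 3 Tmem216-/- samples lay above the wild type ones. Without Tmem216-/- replicate 2, 28 of the 35 genes were higher and their median log2 fold change was 0.12.

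**Figure D2:**
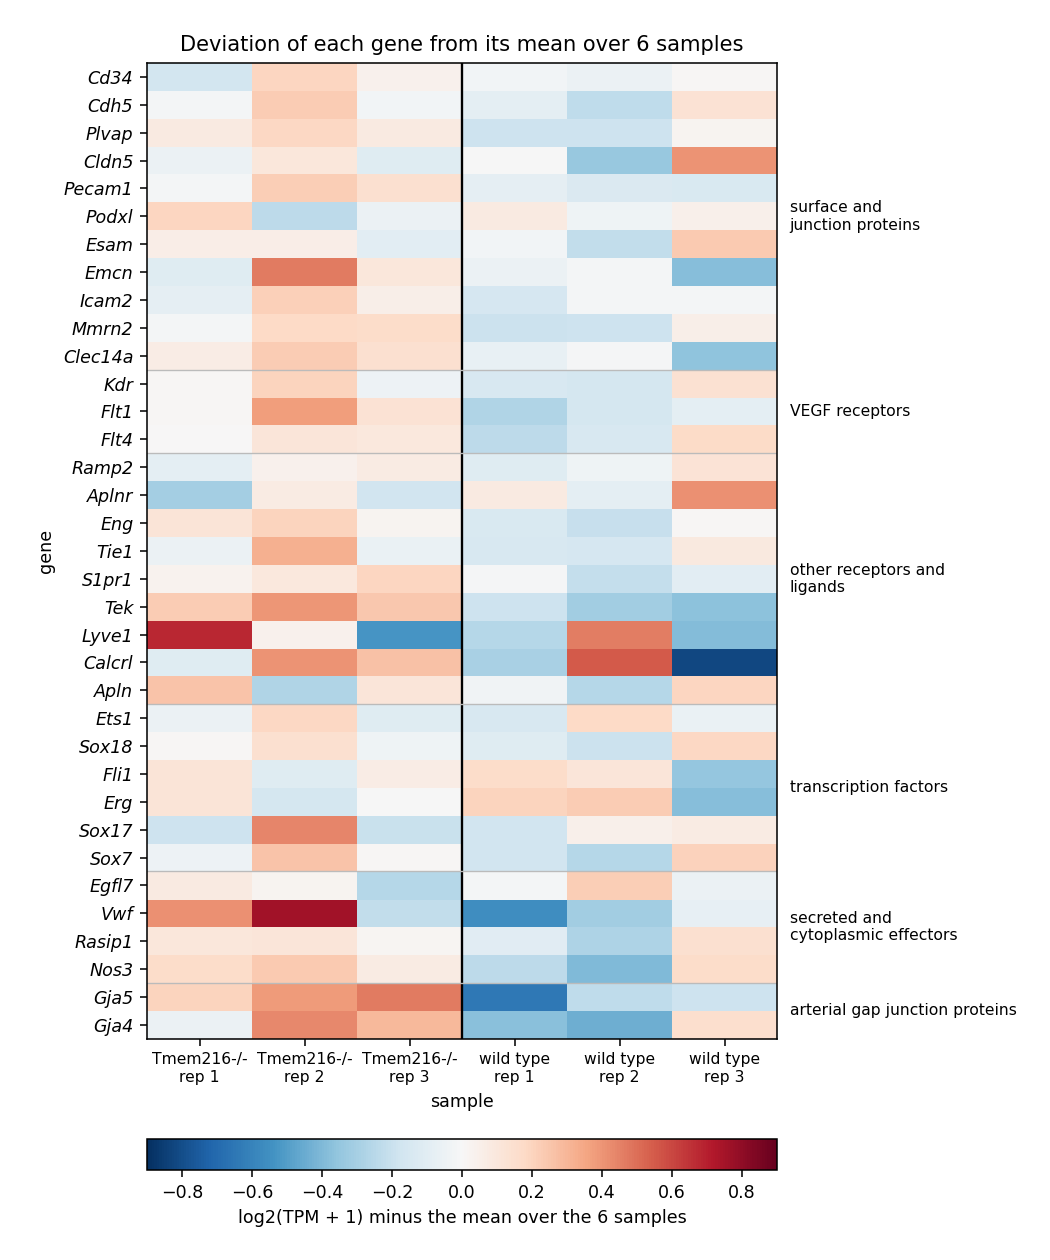
Deviation of log2(TPM + 1) from its mean over the 6 samples, with a row per gene and a column per sample (red, above the mean; blue, below it). Tmem216-/- replicate 2 is red for most genes, Tek and Gja5 are red in all 3 Tmem216-/- samples, and Lyve1 and Calcrl vary within both groups.

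Among the surface and junction proteins 9 of 11 genes had a log2 fold change above 0, with a median of 0.13, and 0 of 11 passed. Pecam1, the adhesion molecule CD31 found at contacts between endothelial cells, was 28.0, 33.2 and 31.5 TPM in Tmem216-/- and 26.7, 25.8 and 25.7 TPM in wild type. Its groups did not overlap, and its log2 fold change was 0.23 (SE 0.10, limma adjusted p = 0.983). Plvap, which forms the diaphragms of fenestrae and caveolae, was 35.1, 38.0 and 35.2 TPM in Tmem216-/- and 29.0, 29.0 and 33.8 TPM in wild type (log2 fold change 0.23, adjusted p = 0.983). Clec14a, a lectin-like surface protein of growing vessels, was 5.30, 6.05 and 5.65 TPM in Tmem216-/- and 4.75, 4.99 and 3.68 TPM in wild type (0.29, adjusted p = 0.983, and 0.18 without wild type replicate 3). The groups of Plvap and Clec14a did not overlap either.

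Cdh5, the adherens junction cadherin, was 36.9, 44.1 and 36.7 TPM in Tmem216-/- and 35.2, 31.9 and 40.9 TPM in wild type. Its groups overlapped, because wild type replicate 3 lay above 2 of the Tmem216-/- samples. Emcn, a mucin-like protein of veins and capillaries, averaged 19.5 ± 4.20 TPM in Tmem216-/- and 15.5 ± 2.20 TPM in wild type (SD, n = 3 each; log2 fold change 0.30, and 0.15 without Tmem216-/- replicate 2). Mmrn2, a matrix protein that binds Clec14a, averaged 8.42 ± 0.68 TPM in Tmem216-/- and 7.12 ± 0.79 TPM in wild type (0.22, and 0.096 with the liver covariate). Cd34, a sialomucin, had a log2 fold change of 0.05, Icam2, a leukocyte ligand, of 0.13 and Esam, a tight junction adhesion molecule, of 0.01. The members below 0 were Cldn5, the claudin of tight junctions, at -0.04 and Podxl, a sialomucin that also marks kidney podocytes, at -0.06. Cldn5 ranged from 24.9 to 42.5 TPM within wild type alone, against 29.4 to 34.1 TPM in Tmem216-/-.

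The 3 VEGF receptors had log2 fold changes above 0, and 0 of 3 passed. Flt1, which binds VEGF-A as a decoy as well as a receptor, was 6.72, 8.99 and 7.39 TPM in Tmem216-/- and 5.38, 5.87 and 6.24 TPM in wild type. Its groups did not overlap (log2 fold change 0.34, SE 0.16, adjusted p = 0.983). Kdr, the main signalling receptor, was 22.8, 26.2 and 22.0 TPM in Tmem216-/- and 20.4, 20.2 and 24.96 TPM in wild type (0.11), and Flt4, the receptor for VEGF-C, was 5.26, 5.74 and 5.67 TPM in Tmem216-/- and 4.32, 4.67 and 6.04 TPM in wild type (0.14). For both, wild type replicate 3 lay within or above the Tmem216-/- values.

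Tek had the smallest p of the 35 genes, though it did not pass the adjustment. Tek, the angiopoietin receptor Tie2 (ENSMUSG00000006386, chromosome 4, 94739289 to 94874976, plus strand, mm10), was 9.84, 11.2 and 9.93 TPM in Tmem216-/- and 7.14, 6.45 and 6.15 TPM in wild type. Every Tmem216-/- sample lay above every wild type sample, and the means differed 1.57-fold (10.3 ± 0.75 TPM in Tmem216-/- and 6.58 ± 0.51 TPM in wild type, SD, n = 3 each). The log2 fold change was 0.58 (SE 0.13), with an unadjusted p of 0.00366 and an adjusted p of 0.496 in limma. An exact permutation test over the samples (two-sided) gave p = 0.1, the smallest that 3 against 3 samples can give. The difference was between 0.52 and 0.63 whichever sample was left out. Tie1, its orphan partner receptor, averaged 20.8 ± 3.42 TPM in Tmem216-/- and 18.8 ± 1.88 TPM in wild type, with overlapping groups and a log2 fold change of 0.13, which was 0.0095 without Tmem216-/- replicate 2 and 0.0093 with the liver covariate.

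Among the other receptors and ligands 8 of 9 genes, Tek and Tie1 included, had a log2 fold change above 0 and 0 of 9 passed. Eng, endoglin, a co-receptor for BMP9 and TGF-beta, was 21.5, 22.8 and 20.1 TPM in Tmem216-/- and 17.9, 17.0 and 19.9 TPM in wild type, and S1pr1, the sphingosine-1-phosphate receptor that restrains sprouting, was 10.6, 11.2 and 12.01 TPM in Tmem216-/- and 10.3, 8.80 and 9.66 TPM in wild type. The groups of both genes did not overlap, with log2 fold changes of 0.22 and 0.21 (adjusted p = 0.983 for each). Aplnr, the apelin receptor of veins and venous progenitors, went the other way, with 16.4, 21.7 and 18.1 TPM in Tmem216-/- and 21.9, 19.3 and 27.8 TPM in wild type. Its log2 fold change of -0.27 (SE 0.17) was the lowest of the 35, and its groups overlapped. It was -0.14 without wild type replicate 3 and -0.47 with the liver covariate. Apln, its ligand, a gene of tip cells, averaged 4.42 ± 0.98 TPM in Tmem216-/- and 4.17 ± 0.81 TPM in wild type.

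Calcrl and Ramp2 encode a receptor and its partner that together bind adrenomedullin, a peptide needed for vessel and lymphatic growth. Calcrl was 4.59, 6.97 and 6.23 TPM in Tmem216-/- and 3.91, 7.85 and 2.41 TPM in wild type, a spread within wild type that covered all 3 Tmem216-/- values. Ramp2 was 33.2, 36.4 and 37.3 TPM in Tmem216-/- and 32.7, 34.5 and 38.7 TPM in wild type, nearly level (log2 fold change 0.02). Adm, the gene of the peptide itself, was 4.66, 4.76 and 3.53 TPM in Tmem216-/- and 1.07, 2.15 and 1.35 TPM in wild type, without overlap (log2 fold change 1.09, SE 0.22, adjusted p = 0.315).

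The 6 transcription factors were close to wild type, with a median log2 fold change of 0.04. In 0 of 6 did the groups separate, as for most tested genes (4.75% with every Tmem216-/- sample above and 4.83% below). Erg, an ETS factor that keeps endothelial identity, was 11.9, 9.68 and 10.9 TPM in Tmem216-/- and 12.7, 13.0 and 8.17 TPM in wild type. Fli1, a related factor also used by megakaryocytes, was 13.7, 11.6 and 13.2 TPM in Tmem216-/- and 14.2, 13.6 and 9.62 TPM in wild type. For both factors wild type replicate 3 was the lowest of all samples, and without it their log2 fold changes were -0.23 and -0.11. Ets1, an ETS factor of many mesodermal cells, was at 0.02. Among the SOXF factors Sox7 was at 0.15, Sox18 at 0.08 and Sox17, the arterial member, at 0.04, with 8.56, 13.8 and 8.48 TPM in Tmem216-/- and 8.67, 10.2 and 10.5 TPM in wild type.

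Of the 4 effectors Vwf had the largest difference, and it rested on 2 samples. Vwf, the clotting factor stored in endothelium and megakaryocytes, was 22.9, 29.3 and 14.4 TPM in Tmem216-/- and 11.2, 13.5 and 16.0 TPM in wild type. Tmem216-/- replicate 3 lay within the wild type range, and the log2 fold change of 0.63 (SE 0.26, adjusted p = 0.983) was 0.41 without Tmem216-/- replicate 2. Of the 7 platelet and megakaryocyte markers 6 had log2 fold changes below 0, with summed levels of 55.2 to 154 TPM in Tmem216-/- and 69.1 to 183 TPM in wild type. Nos3, which makes nitric oxide under flow, was 6.55, 6.93 and 6.10 TPM in Tmem216-/- and 4.73, 4.13 and 6.56 TPM in wild type (0.31, and 0.17 with the liver covariate), and Rasip1, a GTPase effector needed to open vessel lumens, was at 0.16. Egfl7, a secreted matrix protein and the most abundant of the 35, was 68.4, 65.7 and 54.0 TPM in Tmem216-/- and 63.8, 75.6 and 62.3 TPM in wild type (-0.10). Its exons overlap those of Agpat2 on the other strand, which was at 7.85, 6.25 and 6.59 TPM in Tmem216-/- and 9.90, 8.08 and 8.92 TPM in wild type.

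Both arterial connexins were higher in Tmem216-/- by more than the median of the list, and neither passed. Gja5, connexin 40 of arteries and of atrial and conduction muscle (ENSMUSG00000057123, chromosome 3, 96904693 to 97077416, plus strand, mm10), was 13.5, 15.4 and 16.4 TPM in Tmem216-/- and 7.05, 9.71 and 10.1 TPM in wild type. Its groups did not overlap, the means differed 1.69-fold, and the log2 fold change was 0.70 (SE 0.17, unadjusted p = 0.00440, adjusted p = 0.553 in limma), the highest of the 35. Exons of Gpr89 lie across it on the other strand, and Gpr89 was 14.8, 13.5 and 12.6 TPM in Tmem216-/- and 12.6, 13.0 and 12.6 TPM in wild type. Gja4, connexin 37, was 11.0, 15.8 and 14.2 TPM in Tmem216-/- and 8.62, 8.17 and 12.8 TPM in wild type (0.44, SE 0.21, adjusted p = 0.983), with wild type replicate 3 above Tmem216-/- replicate 1. With the liver covariate the log2 fold change was 0.16 for Gja4 and 0.56 for Gja5. Heart muscle also expresses Gja5, and its markers were higher in the same samples: Myl7, the atrial light chain, was 151, 436 and 270 TPM in Tmem216-/- and 1.91, 4.91 and 2.04 TPM in wild type. The part of heart muscle in the level of Gja5 was not tested. Among the Tmem216-/- samples Gja5 was highest in replicate 3 and Myl7 in replicate 2, and both were lowest in replicate 1. Among the wild type samples, too, Gja5 was highest in replicate 3, Myl7 in replicate 2, and both were lowest in replicate 1.

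**Figure D3:**
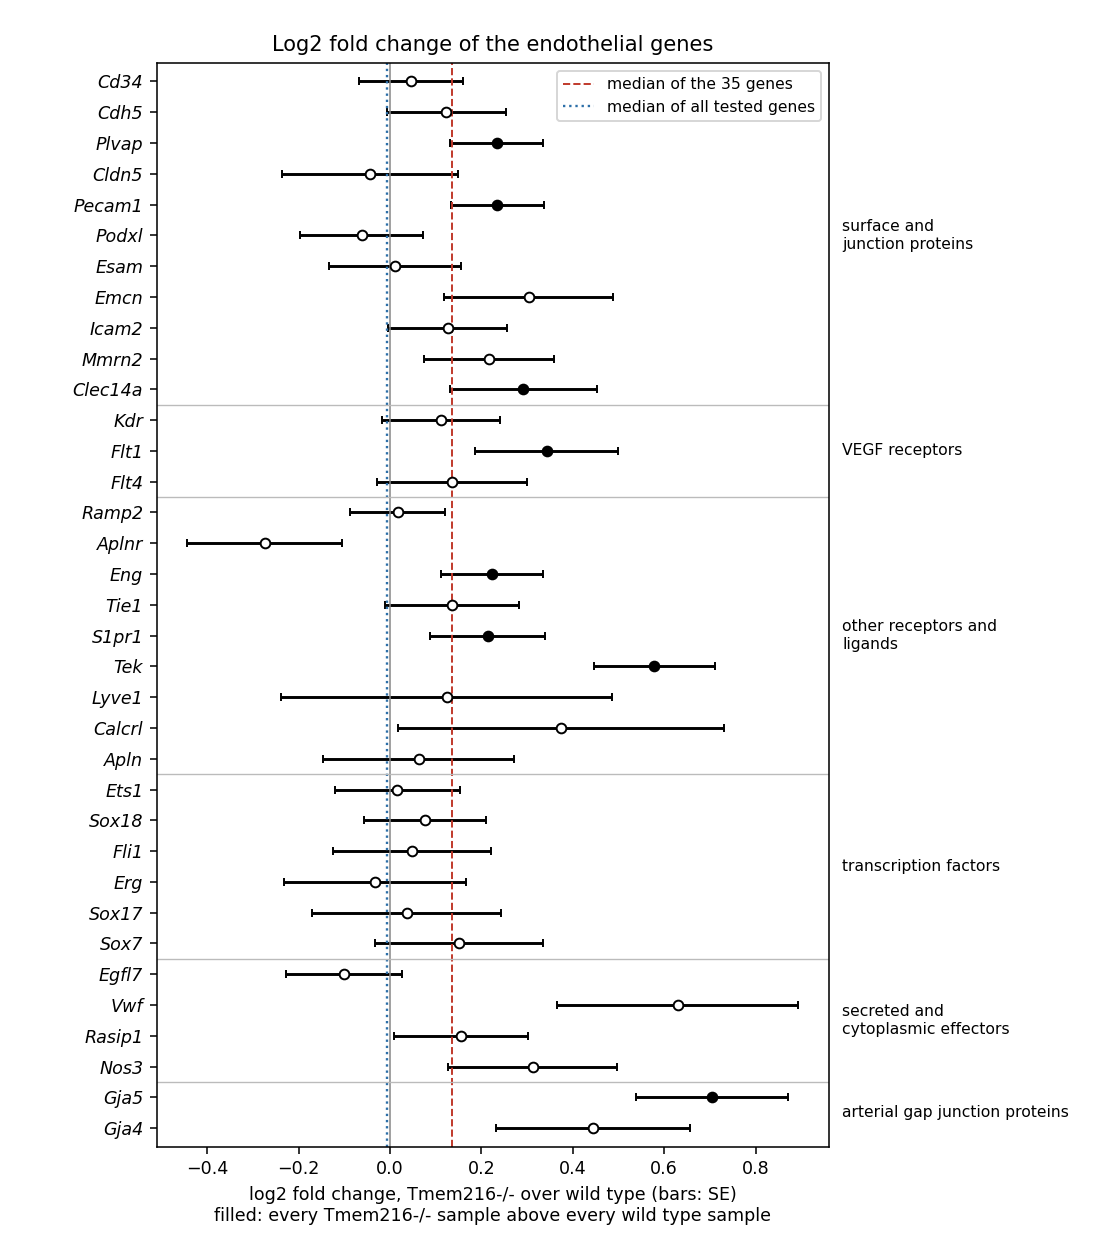
Log2 fold change of Tmem216-/- over wild type for each gene with its SE, grouped by role; filled points are genes whose Tmem216-/- samples all lie above the wild type ones. The points cluster around the list median of 0.13 (dashed), with Gja5, Vwf and Tek highest and Aplnr lowest.

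Of the 2 lymphatic genes neither separated the groups, as for most tested genes (4.75% with every Tmem216-/- sample above and 4.83% below). Lyve1, a hyaluronan receptor of lymphatic endothelium, liver sinusoids and some macrophages, was 9.08, 5.48 and 3.37 TPM in Tmem216-/- and 4.28, 7.68 and 3.81 TPM in wild type, so it varied within each group by more than it differed between them (log2 fold change 0.12, SE 0.36). Stab2, a scavenger receptor of liver sinusoids, was 2.50, 0.56 and 0.54 TPM in Tmem216-/- and 2.19, 2.32 and 0.30 TPM in wild type, and was thus higher in the 3 samples with high hepatocyte markers. Prox1, the master factor of lymphatic endothelium that also acts in liver, heart and neurons, was 8.55, 6.43 and 7.87 TPM in Tmem216-/- and 5.71, 6.40 and 6.32 TPM in wild type (0.26, adjusted p = 0.983). Ccl21a, a chemokine of lymphatic vessels, averaged 7.18 ± 3.68 TPM in Tmem216-/- and 4.47 ± 2.50 TPM in wild type.

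The members also differed from one another in how far they moved relative to the endothelial core. For each gene the mean log2(TPM + 1) of the core genes, without the gene itself, was subtracted in every sample. On this scale Gja5 was 0.52 higher in Tmem216-/- (-0.46 ± 0.17 in Tmem216-/- and -0.98 ± 0.26 in wild type, SD, n = 3 each), Vwf 0.44 and Tek 0.44. Aplnr was lower by -0.46 (-0.17 ± 0.09 in Tmem216-/- and 0.29 ± 0.24 in wild type). Egfl7 was at -0.32, and 29 of the 35 genes lay within 0.25 of the core. These relative differences describe the 6 samples and were not tested.

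In 7 lists of other vessel genes limma called 0 genes, against 0.104% of all tested genes. Only Adm and Bmp4 had an unadjusted p under 0.05. The list medians ran from 0.06 to 0.36, against -0.01 for all tested genes. Every Tmem216-/- sample lay above every wild type sample for 40% of the flow-responsive and 30% of the BMP9 and ALK1 genes. The share was 14.3% of the other lymphatic, 8.33% of the VEGF and angiopoietin and 7.69% of the arterial Notch genes. It was 0% of the venous and of the other endothelial genes, and 4.75% of all tested genes. In the VEGF and angiopoietin list 9 of 12 genes had log2 fold changes above 0, with a median of 0.20. Vegfa, the main ligand of Kdr, averaged 59.5 ± 3.46 TPM in Tmem216-/- and 51.1 ± 9.68 TPM in wild type (0.23), and Pgf, a ligand of Flt1, averaged 4.97 ± 1.05 TPM in Tmem216-/- and 6.84 ± 0.81 TPM in wild type (-0.40). In the arterial Notch list 9 of 13 tested genes were above 0 (median 0.09), with Unc5b, a netrin receptor of arteries and tip cells, at 0.31, Hey2, an arterial Notch effector, at 0.29 and Cxcl12, a chemokine, at 0.14. The venous list had 2 of 4 genes above 0 (median 0.06): Nr2f1 was at 0.20, the vein factor Nr2f2 at 0.13 and the vein receptor Ephb4 at -0.08. In the list of other lymphatic genes 5 of 7 were above 0 (median 0.16), with Pdpn, podoplanin, at 0.25 and Reln, a matrix protein also made by neurons, at -0.41.

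In the list of BMP9 and ALK1 signalling genes 7 of 10 were above 0, with a median of 0.16. Bmp4, a mesodermal signalling ligand, was the furthest from 0, with 42.6, 38.3 and 35.1 TPM in Tmem216-/- and 24.0, 20.1 and 26.9 TPM in wild type, without overlap (0.69, SE 0.14, adjusted p = 0.310). Smad6, an inhibitor of BMP signalling enriched in endothelium, was at 0.26 and the receptor gene Bmpr2 at 0.30, which was 0.086 without wild type replicate 3. The list of flow-responsive genes, which includes Nos3, had 5 of 5 genes above 0 and a median of 0.36. Within it Edn1, endothelin 1, averaged 1.94 ± 0.42 TPM in Tmem216-/- and 1.17 ± 0.22 TPM in wild type (0.43), Thbd, thrombomodulin, was at 0.55 (0.23 with the liver covariate) and Klf4, a factor raised by laminar flow, at 0.36, each with an adjusted p of 0.983.

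The marker lists of the cells that surround or mix with vessels are set beside these values. Of 8 mural cell markers 7 had log2 fold changes above 0, with a median of 0.25 and summed levels of 285 to 314 TPM in Tmem216-/- and 184 to 211 TPM in wild type. For 3 of the 8 every Tmem216-/- sample lay above every wild type sample (37.5%, against 4.75% of all tested genes). The sums averaged 297 TPM in Tmem216-/- and 200 TPM in wild type, and most of this difference came from the 2 smooth muscle genes Tagln and Acta2. Tagln was at 62.5 ± 13.3 TPM in Tmem216-/- and 27.3 ± 3.89 TPM in wild type (log2 fold change 1.15, adjusted p = 0.149). Acta2 was at 130 ± 7.42 TPM in Tmem216-/- and 70.3 ± 13.6 TPM in wild type (0.89, adjusted p = 0.151). Both genes are also active in embryonic heart muscle. Pdgfrb, the pericyte receptor, averaged 29.0 ± 0.66 TPM in Tmem216-/- and 28.6 ± 4.94 TPM in wild type. Of 5 endocardium markers 3 were above 0 (median 0.05), with Npr3 at 0.39 and Gata4, which heart muscle and liver mesenchyme also express, at 11.7 ± 1.70 TPM in Tmem216-/- and 4.16 ± 4.62 TPM in wild type. For 1 of the 5, Gata4, every Tmem216-/- sample lay above every wild type sample (20%). The part of heart tissue in the levels of the endothelial genes was not tested. None of the markers in these lists was at 0 in all samples.

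**Figure D4:**
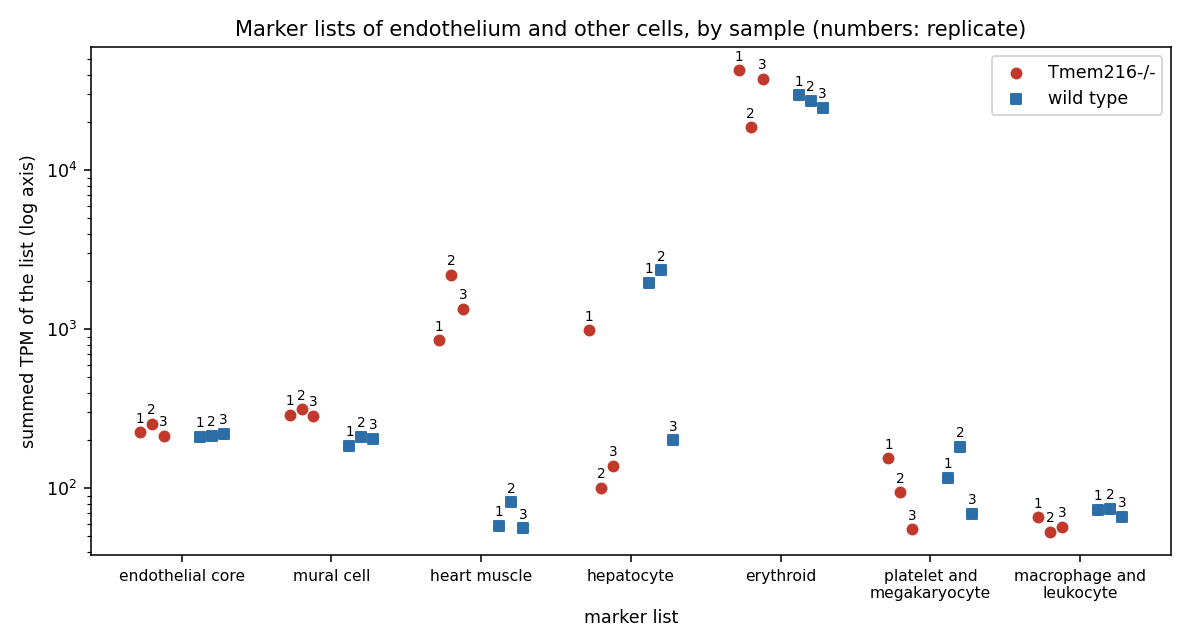
Summed TPM of marker lists in each sample on a log axis (circles, Tmem216-/-; squares, wild type; numbers, replicate). The endothelial core lies between 210 and 254 TPM in all samples, while heart muscle separates the groups and hepatocyte markers are high in Tmem216-/- replicate 1 and wild type replicates 1 and 2.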

How the data were processed

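The authors deposited TPM per gene for each of the 6 samples. The submitters' processing notes name CASAVA 1.8, HISAT2, StringTie, RSEM and mm10, without settings. The table has 2 more numeric columns that match the group means (largest deviation 3.3e-06); they were not used. Without read counts a count model could not be fitted. The 16411 genes that reached 1 TPM in 3 or more samples were tested on log2(TPM + 1), Tmem216-/- over wild type, by limma (lmFit, then trended eBayes; two-sided); the Benjamini and Hochberg adjustment ran across the whole tested set, and a gene was called at an adjusted p under 0.05. SE is the moderated standard error. A pseudocount of 1 understates the change of low genes.

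The members and the 14 companion lists were chosen with earlier results of these data known, so lists are described by counts and medians and not tested. Genes named are all members, Tmem216 and up to 3 (vessel lists) or 2 (other cell lists) genes with the smallest p. Stab2, Ccl21a, Pdgfrb and the overlapping genes Agpat2, Gpr89, Fpgs and Vps25 were chosen after their values were seen. Strand use in counting is not given in the sources used here, and exons of 7 members overlap a gene on the other strand. Among these Eng overlaps Fpgs, at a mean of 23.8 TPM over all samples. Ramp2 overlaps Vps25 on the same strand, at a mean of 114 TPM, so strand cannot separate their reads there. The test was checked on simulated data only for changes larger than that of any member. How often differences of the size seen here would be called was not checked. Versions were Python 3.11.15, pandas 2.3.3, matplotlib 3.10.9, R 4.3.3 and limma 3.58.1.

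Alternatives changed the pseudocount (0.1 or 5), the filter (none, or 5 TPM), the scaling (median of ratios, quantiles, or TPM rescaled after haemoglobin, mitochondrial, ribosomal RNA and heart muscle genes were removed) and the variance model (robust, untrended, or array weights). Others added a replicate block or a sex covariate (Eif2s3y), left out each sample in turn and, added after the data were seen, fitted a liver covariate.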

Additional observations from a re-analysis of the deposited data

How the results depend on the processing

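Under all 19 alternatives 0 of the 35 endothelial genes passed, and their median log2 fold change stayed above 0. The filters, the robust and untrended variance models and the replicate block cannot change a gene's log2 fold change, so its sign was fixed there. The median was 0.06 with the liver covariate, where 25 of 35 genes were higher, and 0.10 to 0.19 with each sample left out. The count of all called genes, 17, was 0 with array weights (a fit that stopped before convergence), 0 with no filter, 0 with the liver covariate and 5 without haemoglobin, mitochondrial, ribosomal RNA and heart muscle genes, in part by removal of called genes. At an unadjusted p under 0.05 limma gave 531, 1207 and 894 genes in the 3 settings with 0 calls. The count of called genes ran from 0 (without wild type replicate 1, with 518 genes at an unadjusted p under 0.05) to 27 (without Tmem216-/- replicate 1) with each sample left out; it was 9 without Tmem216-/- replicate 2, 7 without Tmem216-/- replicate 3, 2 without wild type replicate 2 and 1 without wild type replicate 3. Relative to the core, the difference of Tek was 0.30 with a pseudocount of 5. Where not stated, the cause was not tested.

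Of 664 member values under the alternatives 41 changed sign, and 20 of the 35 genes kept their sign in every fit. The 664 include the fits that cannot change a log2 fold change. With array weights the log2 fold change was -0.066 for Sox17, 0.012 for Cldn5, -0.26 for Lyve1 and -0.10 for Ets1. With the liver covariate it was -0.0025 for Flt4, -0.080 for Esam, 0.20 for Erg, -0.030 for Sox7 and -0.10 for Sox17. In the same fit it was -0.041 for Sox18, -0.044 for Cd34, -0.083 for Ramp2 and 0.023 for Podxl. Outside the 35 it was 0.21 for Klf1 and 0.0056 for Apoa2. Apoa2 is among the hepatocyte markers averaged in this covariate, so its value there is not independent of the covariate. With the sex covariate the log2 fold change was -0.039 for Esam, 0.028 for Erg, -0.069 for Apln and -0.0053 for Ramp2. With samples left out the sign turned for Esam (-0.10 to 0.13), Erg (-0.23 to 0.074), Fli1 (-0.11 to 0.14), Sox17 (-0.18 to 0.14), Sox18 (-0.00027 to 0.19), Cldn5 (-0.22 to 0.15) and Egfl7 (-0.17 to 0.0015). The sign also turned for Cd34 (-0.039 to 0.14), Apln (-0.050 to 0.21), Ramp2 (-0.036 to 0.083), Lyve1 (-0.18 to 0.42), Ets1 (-0.073 to 0.11) and Podxl (-0.18 to 0.041). Outside the 35 it turned for Ephb4 (-0.17 to 0.016).

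The labels link same-numbered samples only by a number, and whether they were paired is not given. Their deviations from the group means correlated at 0.02, -0.09 and 0.10. With 3 samples a group these values cannot show whether a pairing existed. With the replicate block 25 genes were called, 0 of them endothelial, and the median of the 35 was 0.13, which this block cannot change. Depth is unknown. The precision of genes near 5 TPM therefore rests on the spread of 3 samples a group, moderated by the variance trend that limma fits over all tested genes.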

Other observations

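Among 29 other endothelial genes Lmo2, Cd93 and Lyl1 had the smallest p values, and 0 of the 29 were called. Lmo2, a partner of Tal1 in blood and endothelial progenitors, was 36.8, 21.8 and 24.7 TPM in Tmem216-/- and 45.5, 54.5 and 25.8 TPM in wild type (log2 fold change -0.55, adjusted p = 0.983 in limma). Lyl1, a related helix-loop-helix gene, was 7.87, 6.28 and 6.19 TPM in Tmem216-/- and 9.65, 11.1 and 5.92 TPM in wild type (-0.32). Both were higher in Tmem216-/- replicate 1 and wild type replicates 1 and 2, the samples with high hepatocyte markers. With the liver covariate the log2 fold change was -0.097 for Lmo2 and -0.021 for Lyl1. Cd93, a surface protein of endothelium, averaged 12.6 ± 1.89 TPM in Tmem216-/- and 10.3 ± 1.69 TPM in wild type (0.27, and 0.089 with the liver covariate). Of the 29 genes 20 had log2 fold changes above 0, with a median of 0.06.

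Leukocyte, blood and liver markers are set beside these. Of 8 tested macrophage and leukocyte markers 7 had log2 fold changes below 0 (median -0.26), with Fcer1g at 11.1 ± 1.62 TPM in Tmem216-/- and 14.6 ± 1.01 TPM in wild type (-0.38) and Tyrobp at -0.28. For 3 of the 8 every Tmem216-/- sample lay below every wild type sample, as for 4.83% of all tested genes. The erythroid list had 4 of 8 genes above 0 (median -0.01), with Hba-x at 0.48 and Klf1 at -0.86. The platelet genes Gp1bb and Gp1ba were at -0.37 and -0.28, and the hepatocyte genes Ttr and Apoa2 at -0.75 and -2.01. None of these passed in limma.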
